A study of Mus musculus with 30 samples.

Results

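The genes described here are 9 components of the Nodal and BMP pathways, out of 55421 genes in the count table, in bulk RNA-seq of mouse embryonic stem cells (mESCs) that differ in the dosage of the X chromosome. They were chosen by name: the ligands Nodal and Bmp4, the Nodal co-receptor Tdgf1, the secreted Nodal antagonists Lefty1 and Lefty2, the intracellular inhibitors Smad7 and Skil, and the BMP target genes Id1 and Id3. All 9 are protein-coding and autosomal, all were found in the table, and all passed the filter on low counts, so that no member was lost. The study has 30 libraries of 17 conditions, all of female cells from a cross of 129/Sv and Cast/Ei mice, whose genomes are called Mus and Cast below. There were 2 libraries each of XX Wildtype, of XX Rnf12+/- (1 copy of Rnf12 deleted), of XCastO129 (only the Cast X chromosome left) and of X129OCast (only the 129 X chromosome left), and 22 libraries of 13 lines that are Rnf12+/- and heterozygous for a deletion on the X chromosome, named deletion A, B, AB, C, C-G, D, E, F, H, I, I-TEL, J and K. Per the study's methods the deletions were made in the Rnf12+/- line, I-TEL and J in a second Rnf12+/- line, and a neomycin resistance cassette was kept in their place. Lines AB, C-G and I-TEL arose as losses larger than planned. The X that X129OCast cells keep carries the Rnf12 deletion, so these cells have no intact copy, and the XO lines themselves arose during genome editing. The libraries used here come from 1 clone of deletions A, B, AB and C-G and from 2 clones of each of the other 9 lines. The authors left out a further clone of deletion A as a suspected recombination. Cells were grown in serum and LIF medium with fibroblast feeders, which were depleted by pre-plating before RNA was taken.

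Nodal is a ligand of the TGF-β family that signals through activin receptors together with the co-receptor encoded by Tdgf1 (Cripto), and activates SMAD2 and SMAD3. BMP ligands use other receptors of the family and activate SMAD1, SMAD5 and SMAD9, and ID proteins, which bind and block bHLH transcription factors, are direct targets. Lefty1, Lefty2, Smad7 and Skil are themselves induced by SMAD signalling and act as negative feedback, with LEFTY proteins binding Nodal and its co-receptor outside the cell, SMAD7 acting at the receptors and SKIL (SnoN) repressing SMAD target genes in the nucleus. In mESCs, LIF and BMP signals help to sustain self-renewal in serum-containing medium, and Nodal is produced by the cells themselves. RNF12 (RLIM), which is encoded on the X chromosome and is lacking 1 copy in most of these lines, is a ubiquitin ligase known to target SMAD7.

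The Lefty genes need a caution on identity, since they are neighbours and near-copies. In mm10, Lefty2 lies at chr1:180893108-180899103 and Lefty1 at chr1:180935022-180938400, both on the + strand. Their coding sequences are 1104 bases each and identical at 1014 positions (91.8%), and the longest identical run is 140 bases, longer than a read of 50 bases.

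Of all windows of 50 bases in their transcripts, 17.9% of those of Lefty1 (306 of 1707) also occur in Lefty2, and 307 of 2560 of those of Lefty2 occur in another gene, nearly all in Lefty1. Reads from these stretches cannot be placed in 1 of the genes by their own sequence, so the levels of Lefty1 and Lefty2 are less certain than those of the other members. In paired reads a mate may lie outside the shared stretch. This uncertainty may therefore differ between the XO libraries, the only ones read as single reads, and the others. Tdgf1 (chr9:110939603-110946158, - strand) shares 8.86% of its windows with its pseudogene Tdgf1-ps1, which was counted at 71.35 to 133 TPM in the deletion libraries, and Bmp4 (chr14:46383520-46390669, - strand) shares 2.18%. Nodal (chr10:61417972-61425338, + strand), Skil (chr3:31095058-31122577, + strand), Id1 (chr2:152736251-152737410, + strand), Id3 (chr4:136143497-136145755, + strand) and Smad7 on chromosome 18 share none.

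The libraries fall into 3 series by the prefix of the library names in the labels, which also differ in depth. The XX series holds XX Wildtype, XX Rnf12+/- and deletion E (6 libraries, 20374510 to 21180709 counts in genes each), the deletion series the other 12 deletion lines (20 libraries, 8815980 to 10679746 counts), and the XO series the 4 XO libraries (14997997 to 16494587 counts), the only ones read as single instead of paired reads. The deleted gene checked the labels: Rlim (Rnf12) was at 211 and 193 TPM in XX Wildtype, at 77.6 and 79.7 TPM in XX Rnf12+/-, and at 3.53 and 3.53 TPM in X129OCast. Of the pluripotency markers, Pou5f1 was at 1520 TPM or more in every library. Sox2 and Nanog were lower in the XO series (314 to 409 TPM and 312 to 526 TPM) than in the XX series (697 to 789 TPM and 726 to 1089 TPM) and the deletion series (480 to 639 TPM and 613 to 875 TPM). Esrrb was lower in the XO series than in the XX series (491 to 701 against 712 to 891 TPM). Pou5f1 (1882 to 2016 against 1612 to 1958 TPM) and Zfp42 (703.5 to 1073 against 722 to 914 TPM) overlapped between them. The summed level of 5 primitive endoderm markers was 5.35 to 19.1 TPM, highest in deletion I clone 1. That of 5 mesendoderm markers was 15.8 to 65.85 TPM, highest in XCastO129 replicate 2. No marker of either list was at 0 in any library. Markers of feeder fibroblasts (8 genes, none at 0 in any library) differed within conditions: Col1a1, the main fibroblast collagen, was at 138 and 36.4 TPM in XX Wildtype, at 170 and 28.3 TPM in XX Rnf12+/- and at 116 and 182 TPM in deletion E, and at 16.2 to 97.4 TPM in the other 24 libraries. Deletion I clone 1 stood apart in the genes of chromosomes 1 and 14, as described below with the members located there. The study calls its replicates independent clones, while the labels give replicate numbers only.

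All 9 members had counts in every library. In TPM (counts per exon length, scaled so that the genes of a library have the same sum in every library, which allows genes to be compared), Tdgf1 was the most abundant member with a median of 637 TPM over 30 libraries (485 to 853), followed by Lefty2 with 371 TPM (217 to 742) and Lefty1 with 227 TPM (99.6 to 631). The other 6 had lower medians, of 93.2 TPM for Id1 (51.2 to 171), 88.2 TPM for Nodal (71.0 to 188), 83.4 TPM for Id3 (40.5 to 162), 77.0 TPM for Bmp4 (28.6 to 208), 76.8 TPM for Smad7 (39.75 to 102) and 32.9 TPM for Skil (14.1 to 65.1). Skil lay below Nodal in every library, and the ranges of the other 5 overlapped. Over all libraries, Bmp4 varied most, 7.26-fold between its highest and its lowest library, followed by Lefty1 with 6.33-fold, and Tdgf1 varied least with 1.76-fold. The smallest count behind any of these values was 161 counts, for Id1 in deletion A.

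**Figure D1:**
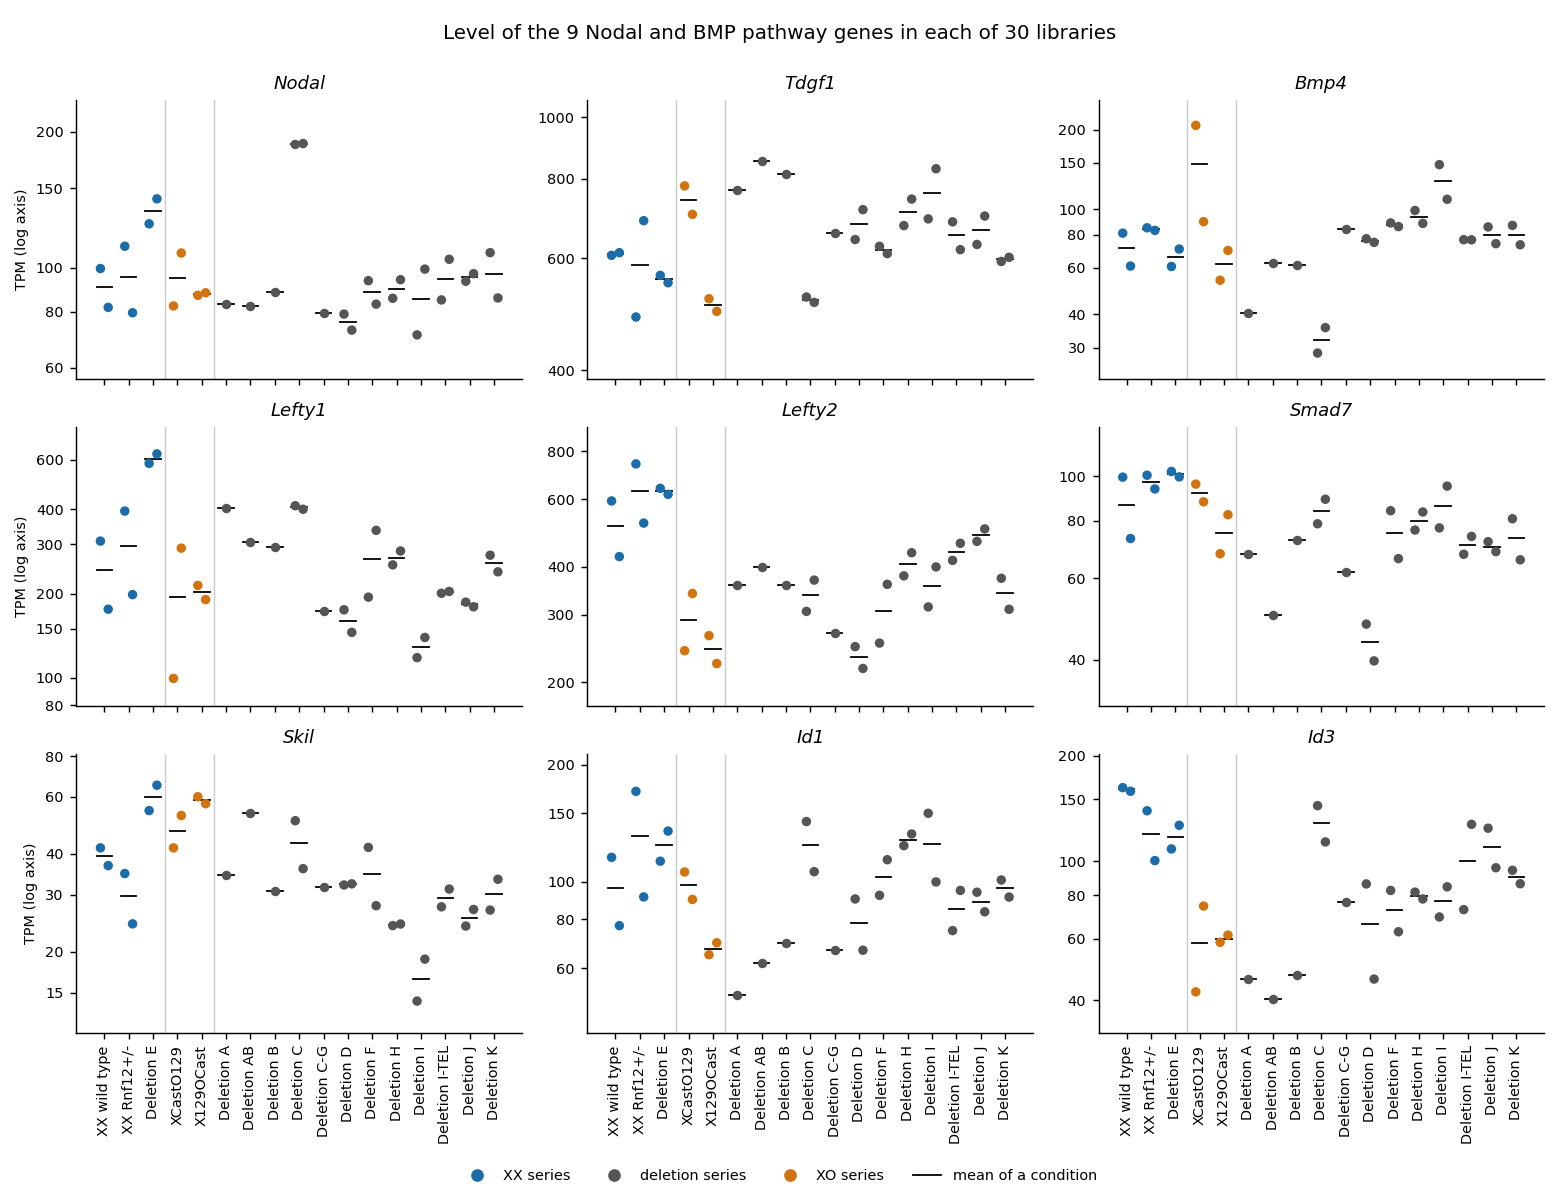
Level of each member (TPM, log axis) in each of the 30 libraries, by condition. Points are libraries, coloured by series, and bars are means of a condition. Both clones of deletion C stand above all other libraries for Nodal (188 TPM) and lowest for Bmp4 (28.6 and 35.7 TPM), and all 20 grey libraries lie below both XX Rnf12+/- libraries for Lefty2.

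Loss of 1 Rnf12 copy was compared first, within the XX series. None of the 9 members passed the test between XX Rnf12+/- and XX Wildtype (edgeR quasi-likelihood test with Benjamini-Hochberg adjustment over all 16717 genes tested, 2.94% of which passed). At an unadjusted p under 0.05 it was also 0 members, and DESeq2 called 0. Smad7, whose protein RNF12 targets, was at 100 and 93.75 TPM in XX Rnf12+/- and at 99.4 and 73.2 TPM in XX Wildtype (log2 fold change 0.19, SE 0.152, adjusted p = 0.706). The ranges of the conditions overlapped for this gene. The largest differences were those of Id1 (log2 fold change 0.47, SE 0.255, adjusted p = 0.478) and Id3 (-0.40, SE 0.273, adjusted p = 0.631), in opposite directions. In both conditions, replicate 1 was above replicate 2 for 8 of the 9 members, all but Tdgf1, and by most for Lefty1 (394 against 198 TPM in XX Rnf12+/-, and 308 against 176 TPM in XX Wildtype). Replicate 1 was also the library with more Col1a1 in both conditions, and with the higher sum of the 8 fibroblast markers. The sums were 922 and 414 TPM in XX Wildtype and 1191 and 533 TPM in XX Rnf12+/-. Not every marker went this way, since Lum and Dcn were highest of the series in XX Rnf12+/- replicate 2 (3.60 and 1.51 TPM). The part of the fibroblast RNA in these differences was not tested. In bulk RNA, fewer cells of a type and less RNA per cell cannot be told apart.

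Deletion E is the only deletion line in the same series as its parental line, which allowed a comparison free of the series. Of the 9 members, 1 passed the test, where 0.652% of all genes did. Skil, which represses SMAD target genes, was at 54.4 and 65.1 TPM in deletion E and at 34.8 and 24.4 TPM in XX Rnf12+/-, with no overlap (1.95-fold, log2 fold change 0.96, SE 0.196, adjusted p = 0.0264). Lefty1 was at 583 and 631 TPM, the highest values of all 30 libraries, against 394 and 198 TPM (log2 fold change 0.98, SE 0.352), but the spread within XX Rnf12+/- was wide and the difference did not pass (adjusted p = 0.252). It passed when XX Rnf12+/- replicate 1 was left out (log2 fold change 1.56, adjusted p = 0.0462). Nodal was at 125 and 142 TPM against 112 and 79.5 TPM (log2 fold change 0.43, SE 0.167, adjusted p = 0.299). Its log2 fold change was 0.69 without XX Rnf12+/- replicate 1. The other 6 members differed by a log2 fold change of -0.41 (Bmp4) to 0.01 (Smad7), none past the threshold. Col1a1 was high in both deletion E libraries and in 1 of the 2 parental libraries. The fibroblast markers Col3a1 and Dcn were lowest of the series in deletion E clone 1 (5.55 and 0.569 TPM). The part of the fibroblast RNA in the values of Skil was not tested. The call on Skil was lost when XX Rnf12+/- replicate 2 was left out (log2 fold change 0.72, adjusted p = 0.425), and when either deletion E clone was (1.06 and 0.85, adjusted p = 0.0867 and 0.423).

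The XO lines were compared with XX Rnf12+/- to ask what the loss of a whole X chromosome does. In XCastO129, 5 of 9 members passed, where 36.3% of all genes did, and in X129OCast 4 of 9, where 47.5% did. These shares are so near to those of all genes that the counts say little about the members. Since the XO libraries form a series and a read type of their own, neither can be told apart from the loss of the X. Sox2, Nanog and Esrrb were also lower in these libraries than in the XX series, while Pou5f1 and Zfp42 overlapped with it. The part of these genes in the values of the members was not tested. Both comparisons share the XX Rnf12+/- libraries, and the values are therefore given side by side.

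Lefty2 was lower in both XO lines, at 242 and 341 TPM in XCastO129 and at 264.5 and 224 TPM in X129OCast, against 742 and 520 TPM in XX Rnf12+/-. The log2 fold changes were -1.01 (SE 0.199, adjusted p = 0.000556) and -1.23 (SE 0.200, adjusted p = 5.61e-05), or 2.02-fold and 2.34-fold lower. All 4 XO values lay below both XX Rnf12+/- values and below both XX Wildtype values (594 and 425 TPM).
Skil was higher in both, at 41.8 and 52.5 TPM in XCastO129 and at 59.96 and 57.1 TPM in X129OCast, against 34.8 and 24.4 TPM (log2 fold change 0.77, SE 0.197, adjusted p = 0.00469, and 1.12, SE 0.197, adjusted p = 0.000126). The values did not overlap. The call in XCastO129 was lost when XX Rnf12+/- replicate 2 (0.53, adjusted p = 0.0762) or XCastO129 replicate 2 (0.60, adjusted p = 0.0556) was left out.
Id3 was lower in both, at 42.3 and 74.4 TPM and at 58.7 and 61.5 TPM, against 139 and 100 TPM (log2 fold change -0.94, SE 0.281, adjusted p = 0.0139, and -0.86, SE 0.281, adjusted p = 0.0172). Without XX Rnf12+/- replicate 1 neither passed (-0.68, adjusted p = 0.12, and -0.59, adjusted p = 0.153), nor did the first without XCastO129 replicate 1 (-0.59) or the second without either X129OCast library (-0.81 and -0.88). Id1 passed in X129OCast, at 65.0 and 69.7 TPM against 171 and 91.45 TPM (log2 fold change -0.82, SE 0.260, adjusted p = 0.0139), and not in XCastO129, at 106 and 90.1 TPM (-0.32, SE 0.256, adjusted p = 0.352), where it passed without XX Rnf12+/- replicate 2 (-0.70, adjusted p = 0.0394). The call in X129OCast was lost without XX Rnf12+/- replicate 1 (-0.29, adjusted p = 0.385) and without either X129OCast library (-0.77 and -0.86). The direct test of Id1 between the XO lines did not pass (log2 fold change -0.50, SE 0.263, adjusted p = 0.273).

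Nodal, Lefty1 and Smad7 passed in neither XO line. Nodal was at 82.3 and 108 TPM in XCastO129 and at 86.9 and 88.0 TPM in X129OCast, with log2 fold changes of 0.09 (SE 0.168) and 0.01 (SE 0.169) to XX Rnf12+/-. Smad7 had log2 fold changes of 0.02 (SE 0.152) and -0.23 (SE 0.153), and Lefty1 of -0.50 (SE 0.354, adjusted p = 0.285) and -0.41 (SE 0.354, adjusted p = 0.355). Lefty1 was at 99.6 and 291 TPM in the 2 XCastO129 libraries, which was the widest gap within a condition as a ratio, and at 214 and 190 TPM in X129OCast. Without replicate 2 of XCastO129, the log2 fold change of Lefty1 in that line was -1.47. Lefty1 passed in both XO lines without the filter on low counts (-0.54, adjusted p = 5.01e-05, and -0.44, adjusted p = 0.00107). The same unfiltered fit gave Lefty1 in deletion E an adjusted p of 3.55e-14 at a log2 fold change of 0.98. With the filter, that difference did not pass. The cause of these smaller values was not tested.

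The direct comparison of the XO lines, within 1 series and read type, set cells without an intact Rnf12 copy and with the 129 X beside cells with 1 copy and the Cast X. Of 9 members, 2 passed, both lower in X129OCast, where 6.70% of all genes passed (3.48% lower). Tdgf1, the Nodal co-receptor, was at 518.5 and 495 TPM in X129OCast and at 780 and 704 TPM in XCastO129, with no overlap (1.42-fold lower, log2 fold change -0.51, SE 0.116, adjusted p = 0.0139), a call that was lost without XCastO129 replicate 1 (-0.43, adjusted p = 0.0737) and without either X129OCast library (-0.54 and -0.47). Both alleles of Tdgf1 were lower, with 154 and 149 allelic CPM (reads of 1 allele, scaled by library size) against 239 and 203 on the Mus allele, and 139 and 132 against 188 and 188 on the Cast allele.
Bmp4 was at 53.9 and 69.9 TPM in X129OCast and at 208 and 89.8 TPM in XCastO129 (log2 fold change -1.23, SE 0.259, adjusted p = 0.00868). The value of 208 TPM, in XCastO129 replicate 1, was the highest of all 30 libraries, and without this library the difference was -0.50 and did not pass (adjusted p = 0.155), nor did it without X129OCast replicate 1 (-1.04, adjusted p = 0.12). The rise of Bmp4 in XCastO129 against XX Rnf12+/- (log2 fold change 0.92, SE 0.254, adjusted p = 0.00805) rested on it as well, with 0.19 and adjusted p = 0.509 without it. The same library had the lowest Lefty1 of all 30, and the allelic counts show Bmp4 high on both alleles in it (295 Mus and 369 Cast counts). Tdgf1 had a log2 fold change to XX Rnf12+/- of 0.44 in XCastO129 (SE 0.116, adjusted p = 0.00572) and of -0.07 in X129OCast (SE 0.116, adjusted p = 0.656), and the first call was lost without XX Rnf12+/- replicate 1 (0.21, adjusted p = 0.148) or XCastO129 replicate 1 (0.36, adjusted p = 0.0568).

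**Figure D2:**
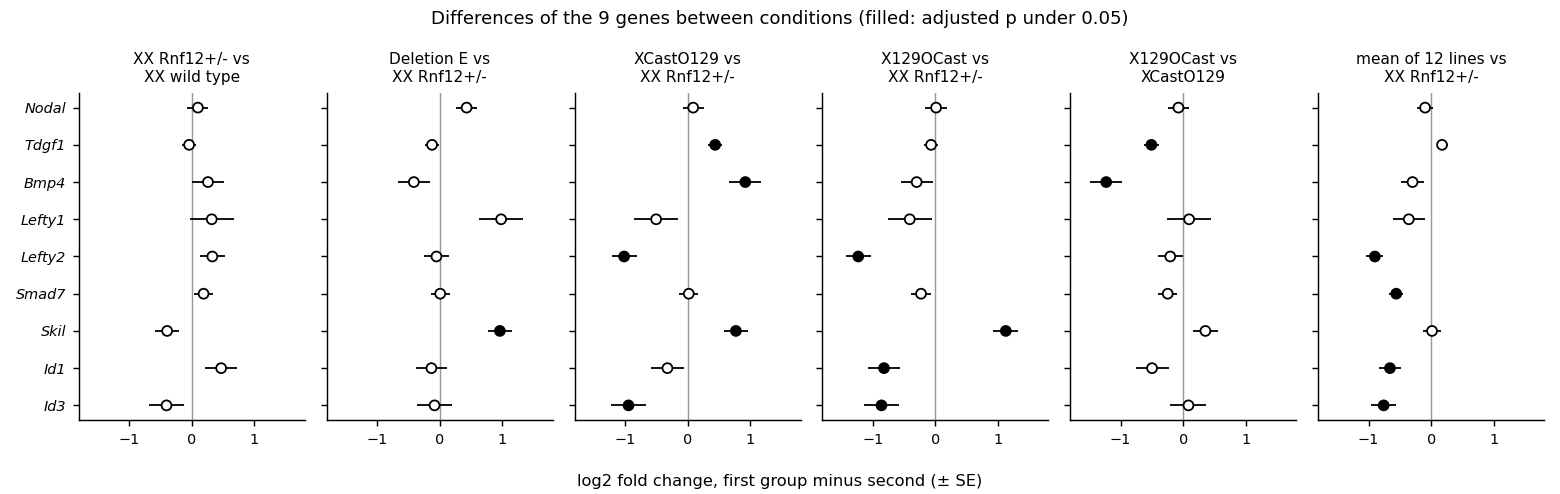
Log2 fold change of each member in 6 comparisons (x axis, first group minus second, error bars ± SE), with filled points where the adjusted p was under 0.05. Lefty2 lies left of 0 in both XO lines (-1.01 and -1.23) and in the mean of 12 deletion lines (-0.90), and Skil right of 0 in deletion E and both XO lines (0.96, 0.77 and 1.12).

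The 12 lines of the deletion series were set against XX Rnf12+/- of the other series, so that whatever differs between the series is part of these differences and cannot be told apart from what the deletions share. For the mean of the 12 lines, 4 of 9 members passed, all lower, where 17.4% of all genes passed as lower. Lefty2 was at 217 to 502 TPM (median 364.5) in the 20 libraries, all of them below both XX Rnf12+/- libraries (520 and 742 TPM), and the mean of the lines was 1.87-fold lower (log2 fold change -0.90, SE 0.135, adjusted p = 8.98e-05). Smad7 was at 39.75 to 95.1 TPM (median 72.4) against 100 and 93.75 TPM, and 1.47-fold lower (-0.56, SE 0.108, adjusted p = 0.000928). XX Wildtype, also of the XX series, overlapped with the 20 libraries in both genes. It was at 594 and 425 TPM for Lefty2 and at 99.4 and 73.2 TPM for Smad7. Id1 and Id3 were lower by log2 fold changes of -0.66 (SE 0.181, adjusted p = 0.0109) and -0.76 (SE 0.194, adjusted p = 0.00691), but their 20 libraries, at 51.2 to 150 TPM and at 40.5 to 144 TPM, overlapped with XX Rnf12+/- (171 and 91.45 TPM, and 139 and 100 TPM). Without XX Rnf12+/- replicate 1, the calls on Lefty2 (-0.63, adjusted p = 0.0331) and Smad7 (-0.51, adjusted p = 0.0439) were kept and those on Id1 (-0.14, adjusted p = 0.772) and Id3 (-0.50, adjusted p = 0.283) were lost. Deletion E, in the series of XX Rnf12+/-, differed from it by -0.05 for Lefty2 and 0.01 for Smad7.

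Taken line by line, 31 of 108 pairs of a member and a line passed against XX Rnf12+/-, 28 of them lower, against 17.4% of all pairs of a gene and a line (8.08% higher and 9.37% lower). Lefty2 passed as lower in 10 of 12 lines, with log2 fold changes from -1.48 in deletion D to -0.63 in I-TEL, and had -0.72 and -0.45 in deletions AB and J, which did not pass. Smad7 passed as lower in 6 lines (from -1.18 in deletion D to -0.53 in deletion J). Id1 and Id3 did in the same 4 lines, A, AB, B and D. The values ran for Id1 from -1.42 in deletion A to -0.77 in deletion D and for Id3 from -1.63 in deletion AB to -0.89 in deletion D. The 3 pairs that passed as higher were Nodal in deletion C (0.93, SE 0.169, adjusted p = 0.000448), and Tdgf1 (0.48, SE 0.139, adjusted p = 0.0285) and Skil (0.79, SE 0.235, adjusted p = 0.0315) in deletion AB. The count depended on the XX Rnf12+/- library used, with 11 pairs without replicate 1 and 51 pairs without replicate 2.

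To leave the series aside, each of the 12 lines was compared with the mean of the other 11. In these comparisons 16 of 108 pairs of a member and a line passed, 11 higher and 5 lower, where 9.31% of all pairs of a gene and a line did (5.13% higher and 4.18% lower), and deletion C alone gave 8 of the 16. Deletions A, B, C-G, F, H, I-TEL and K gave none, although 11 of their 63 pairs had an unadjusted p under 0.05 and DESeq2 called 3. For the lines with 1 clone, the fit takes their spread from the lines with 2.

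**Figure D3:**
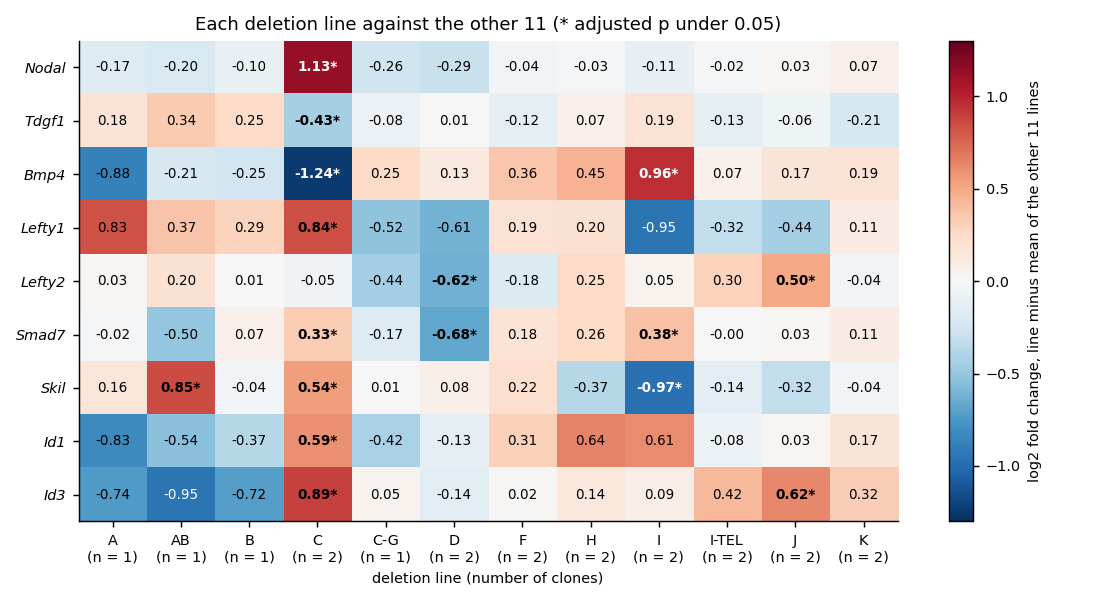
Log2 fold change of each member (rows) in each deletion line (columns, with the number of clones) against the mean of the other 11 lines of the series. Red is higher, blue is lower, and * marks an adjusted p under 0.05, which 16 of 108 values reached, 8 of them in deletion C.

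In deletion C, 8 of 9 members passed, 6 higher and 2 lower, in a line in which 34.0% of all genes passed (18.6% higher and 15.4% lower). Deletion C-G (1 clone), counted below among the other lines, includes the stretch of deletion C by the study's coordinates. It had no member call, with Nodal at 79.2, Bmp4 at 84.1 and Tdgf1 at 658 TPM. Nodal, the ligand, was at 188 and 188 TPM in the clones of deletion C and at 71.0 to 108 TPM in the 18 libraries of the other lines, which leaves a wide gap (2.18-fold, log2 fold change 1.13, SE 0.116, adjusted p = 7.23e-07). Both alleles took part: the Mus allele had 15.4 and 18.2 allelic CPM against 6.21 to 9.07 elsewhere, and the Cast allele 12.9 and 14.9 against at most 8.48. Nodal was also above every library outside the series, of which deletion E came nearest with 142 TPM.
Bmp4, the BMP ligand, moved the other way, at 28.6 and 35.7 TPM against 40.7 to 147.5 TPM in the other lines, with no overlap (2.36-fold lower, log2 fold change -1.24, SE 0.227, adjusted p = 0.000324). It was low on both alleles, with 12 and 25 Mus counts and 18 and 24 Cast counts per library, or 1.14 and 2.35 allelic CPM on the Mus allele (others 2.35 to 12.7) and 1.71 and 2.26 on the Cast allele (others 3.46 to 7.57).

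Among the Nodal antagonists, Lefty1 was at 412 and 400 TPM in deletion C (log2 fold change 0.84, SE 0.248, adjusted p = 0.0129), a level that deletion A also reached with 406 TPM. Lefty2 was at 306 and 369 TPM and did not differ past the threshold (-0.05). The TPM ratio of Lefty1 to Lefty2 was thus highest in deletion C, at 1.35 and 1.08, and in deletion A, at 1.13, against a median of 0.689 over all 30 libraries. The co-receptor Tdgf1 was at 522 and 512 TPM, below all 18 other libraries of the series (593 to 853 TPM), and 1.35-fold lower (-0.43, SE 0.0905, adjusted p = 0.00107). Its fall was seen on both alleles, with 142 and 139 allelic CPM on the Mus allele (others 154 to 240) and 95.4 and 90.4 on the Cast allele (others 103 to 158).

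Of the inhibitors, Skil was at 50.6 and 36.05 TPM (log2 fold change 0.54, SE 0.143, adjusted p = 0.00663) and Smad7 at 78.8 and 89.05 TPM (0.33, SE 0.114, adjusted p = 0.0288), both within the range of the other lines. The BMP target Id3 was at 144 and 113 TPM, where the other lines reached 127 TPM (1.85-fold, log2 fold change 0.89, SE 0.199, adjusted p = 0.00185), and Id1 was at 143 and 106 TPM, within the others' range (log2 fold change 0.59, SE 0.191, adjusted p = 0.0228). Id1 and Id3 were thus higher in the line with the lowest Bmp4. Over the 18 other libraries of the series both were higher where Bmp4 was (Pearson r = 0.84 for Id1 and 0.45 for Id3). These 18 include deletion I clone 1, which had the highest Bmp4 and Id1 of the series (147.5 and 150 TPM). Over all 20 libraries r was 0.26 for Id1 and -0.10 for Id3. Without deletion I clone 1, but with deletion C, it was 0.08 and -0.08. The r without both was not computed. Of these 8 calls, those on Nodal, Bmp4 and Tdgf1 held without either clone of deletion C. Those on Skil (0.29, adjusted p = 0.337), Id1 (0.37, adjusted p = 0.376) and Id3 (0.72, adjusted p = 0.0803) were lost without clone 1, and those on Lefty1 (0.83 and 0.85) and Smad7 (0.43 and 0.23) without either clone. Smad7 also missed the threshold with scaling factors per chromosome (0.27, adjusted p = 0.0599). Rlim was at 144 and 107 TPM in these clones, the highest among the 12 lines, of which the other 11 had 50.4 to 99.9 TPM (log2 fold change 0.86, SE 0.0915, adjusted p = 9.5e-07), and its part in the members' values was not tested.

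Deletion I had 3 calls, where 8.67% of all genes passed. Bmp4 was at 147.5 and 109 TPM, the highest 2 values among the 20 libraries, and 1.95-fold higher than in the other lines (log2 fold change 0.96, SE 0.181, adjusted p = 0.00365). Skil was at 14.1 and 19.0 TPM, the lowest 2 values of all 30 libraries, and 1.95-fold lower (-0.97, SE 0.166, adjusted p = 0.00233), with both alleles below all other libraries of the series (Mus 4.90 and 6.60 allelic CPM against 7.40 to 18.9, Cast 3.40 and 3.78 against 4.97 to 10.5). Smad7 was at 77.2 and 95.1 TPM (0.38, SE 0.113, adjusted p = 0.0411), a call that was lost without either clone and, narrowly, in several other settings. Lefty1 was at 118 and 139.5 TPM, the lowest 2 values among the 20 libraries, but its difference did not pass (-0.95).

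These values need the state of clone 1 beside them. In deletion I clone 1 the genes of chromosomes 1 and 14 were raised as a whole, with a median over 977 and 567 tested genes that lay 0.44 and 0.45 (log2) above the mean of the series, where the 29 other libraries lay between -0.04 and 0.05 for chromosome 1 and between -0.06 and 0.06 for chromosome 14. The Mus share of allelic counts was 68.0% on chromosome 1 (50.7% to 56.7% elsewhere) and 65.5% on chromosome 14 (46.0% to 51.3% elsewhere). The members on these chromosomes had the same shift in their alleles: the Mus share was 72.8% for Lefty1 (95% Wilson interval 66.1% to 78.6%, others 48.2% to 61.8%), 82.9% for Lefty2 (78.7% to 86.4%, others 59.2% to 70.8%) and 66.1% for Bmp4 (59.2% to 72.5%, others 33.0% to 57.3%). Of the members on other chromosomes, Nodal, Smad7 and Skil had shares within the range of the other libraries, and Tdgf1 lay slightly above it (66.4%, others 50.3% to 64.2%). The intervals cover counting error only.
In level the members did not follow their chromosomes alike, since Bmp4 was highest of the series in clone 1 while Lefty1 was lowest, with 13.9 Mus and 5.20 Cast allelic CPM against a range of 10.7 to 35.5 and 6.58 to 25.2 in the other lines. Clone 1 also had the highest sum of primitive endoderm markers (19.1 TPM, Sox7 at 10.5 TPM) and of fibroblast markers (935 TPM) among the 20 libraries. Fn1 made up 845 TPM of the fibroblast sum. Thy1 was instead the lowest of the 20 libraries (29.85 TPM), and Col1a1 was at 33.9 TPM, below their median of 42.2 TPM. The part of these markers in the members' values was not tested. Without clone 1, Bmp4 in deletion I was 0.69 above the other lines and no longer passed (adjusted p = 0.267), and Skil was 0.80 below and no longer passed (log2 fold change -0.80, adjusted p = 0.147). With scaling factors per chromosome, Bmp4 was 0.67 above and passed (adjusted p = 0.0337).

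**Figure D4:**
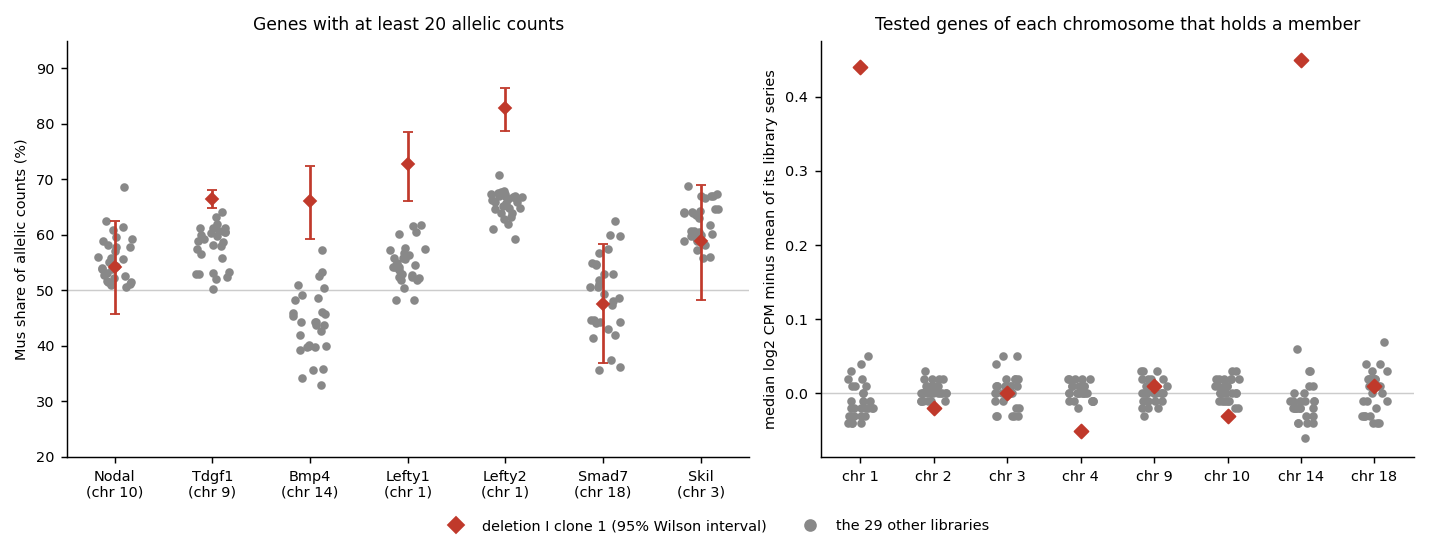
Left, Mus share of allelic counts (%) of the 7 members with at least 20 allelic counts in every library. Right, median log2 CPM of the tested genes of each chromosome that holds a member, relative to the mean of the library series. The red diamond is deletion I clone 1 (with 95% Wilson intervals on the left) and grey points are the 29 other libraries. It stands apart for Lefty1, Lefty2 and Bmp4 and for chromosomes 1 and 14 (0.44 and 0.45).

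Over all libraries, the Mus share differed between members. Summed, it was 66.2% for Lefty2, 62.2% for Skil, 57.8% for Tdgf1, 54.9% for Nodal, 54.1% for Lefty1, 49.1% for Smad7 (95% Wilson interval 47.4% to 50.9%) and 45.1% for Bmp4. The interval of Smad7 includes an equal use of the alleles. The summed share of Nodal was close to the highest that its chromosome 10 had as a whole in a single library. That was 55.0% in XX Rnf12+/- replicate 1, and the lowest was 50.4%. Id1 had at least 20 allelic counts in 9 libraries only and Id3 in none, so that no share is given for them.

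The remaining 5 calls were in deletions AB, D and J. In deletion AB (1 clone, 0.951% of all genes called as higher), Skil was at 53.5 TPM, the highest value among the 20 libraries (log2 fold change 0.85, SE 0.187, adjusted p = 0.019). In deletion D (6.78% called as lower), Smad7 was at 47.8 and 39.75 TPM, the lowest 2 values of all 30 libraries (1.60-fold lower, -0.68, SE 0.126, adjusted p = 0.00246), and Lefty2 was at 248 and 217 TPM (-0.62, SE 0.158, adjusted p = 0.0154), where the other lines had 253 to 502 TPM. In deletion J (11.3% called as higher), Lefty2 was at 466 and 502 TPM, the highest 2 values among the 20 libraries (0.50, SE 0.142, adjusted p = 0.0193), and Id3 at 124 and 95.7 TPM (0.62, SE 0.205, adjusted p = 0.0388). Deletion J and I-TEL come from a second Rnf12+/- line, and I-TEL had the next highest mean of Lefty2 (438 TPM). The summed mesendoderm markers were highest of the 20 libraries in the clones of deletion J (38.15 and 39.2 TPM), followed by I-TEL clone 2 (33.95 TPM), against a median of 19.7 TPM. Their sums of primitive endoderm markers were 16.1 and 13.6 TPM (median 10.6 TPM) and their Col1a1 was at 97.4 and 70.7 TPM. The part of these markers' cells in the values was not tested. The Smad7 call in deletion D was lost without clone 2 (-0.53, adjusted p = 0.0853), the Lefty2 calls in deletions D and J without either clone of the line, and the Id3 call without either clone and without single clones of deletions C, H and K.

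Deletions A, B and AB, each 1 clone, were low in both BMP targets: Id3 was at 46.1, 47.4 and 40.5 TPM and Id1 at 51.2, 69.65 and 61.7 TPM. In the comparison with the other 11 lines these differences did not pass (log2 fold changes of -0.72 to -0.95 for Id3 and of -0.37 to -0.83 for Id1). Deletion D clone 2 was as low in Id3 (46.05 TPM) as these, with clone 1 at 86.0 TPM, the widest gap between clones for this gene. In Id1, deletion C-G and deletion D clone 2 lay below deletion B (66.95 and 66.7 TPM).

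How firmly a line can be placed depends on the gap between its clones. Over the 8 lines of the series with 2 clones, the SD between clones on the log2 scale was lowest for Tdgf1 (0.0993) and highest for Id3 (0.352). The SD between the 12 line means was above that between clones for all 9 members, 3.28 times for Bmp4 (0.534 against 0.163), 2.29 times for Lefty1 (0.521 against 0.227), 2.04 times for Tdgf1 and 1.45 times for Id3 (0.510 against 0.352). Lines were thus set apart best by Bmp4 and least by Id3. The widest gap between clones of a line was 0.902, for Id3 in deletion D, and for Lefty1 it was 0.792 in deletion F (194 and 336.5 TPM).

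Across the 20 libraries of the series, some members varied together. These correlations, of log2(CPM + 1), are a description: the points share the series, and clones of a line share their history. Bmp4 was lower where Lefty1 (Pearson r = -0.75, Spearman rho = -0.54), Skil (r = -0.72, rho = -0.68) and Nodal (r = -0.67, rho = -0.15) were higher. For Lefty1 and Skil the relation was similar without deletion C (r = -0.62 and -0.67), while for Nodal it rested on that line (r = 0.03 without it). Id3 ran against Tdgf1 (r = -0.75, rho = -0.71, and r = -0.67 without deletion C), and with Id1 (r = 0.60, rho = 0.45) and Nodal (r = 0.65, rho = 0.72). Id1 ran with Smad7 (r = 0.57, rho = 0.67). Lefty1 and Lefty2, although they are neighbours with shared sequence, varied almost independently (r = 0.18, rho = 0.05), as did Lefty2 and Bmp4 (r = 0.03).

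**Figure D5:**
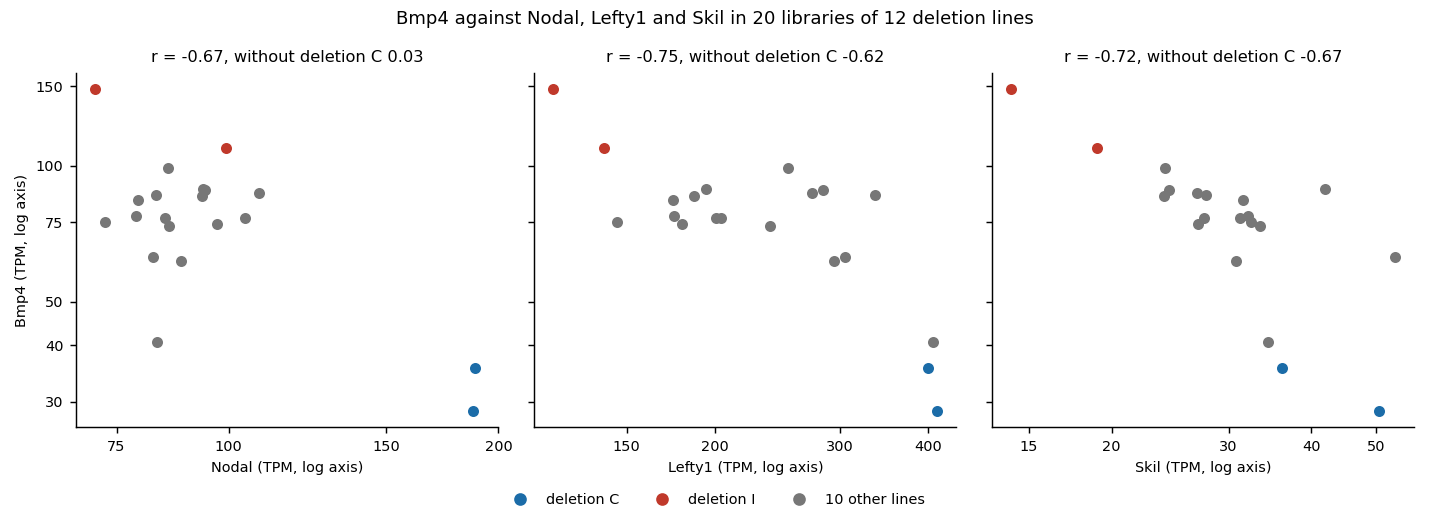
Bmp4 (y axis) against Nodal, Lefty1 and Skil (x axes) in the 20 libraries of 12 deletion lines, in TPM on log axes, with deletion C in blue and deletion I in red. The Pearson r above each plot is that of log2(CPM + 1): -0.67, -0.75 and -0.72, and 0.03, -0.62 and -0.67 without deletion C.

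Of the 16717 genes tested, the 3 most like each member over these 20 libraries were, for Nodal, Tmem64 (r = 0.94), Pip5k1a (r = 0.94) and Tent4a (r = 0.93), for Bmp4, Gbx2 (r = 0.93), Ppp2r5a (r = 0.93) and Ntn1 (r = 0.92), and for Skil, Emb (r = 0.91), Car4 (r = 0.86) and Pclo (r = 0.85). Smad7 was most like Cdc5l, Adam1a and Epha4 (r = 0.88 to 0.89), Id3 like 3110001I22Rik, Gpatch3 and Ppp4r3a (r = 0.88), and Id1 like Ppp1r15b, Rrs1 and Spry2 (r = 0.86 to 0.87). The nearest genes of Lefty1 (Plekhm1, Ranbp9 and Cerk, r = 0.83 to 0.85), Lefty2 (Rce1, Tnrc18 and Mydgf, r = 0.80 to 0.81) and Tdgf1 (Zfp217, Zdhhc18 and Arl4d, r = 0.81 to 0.82) were less close. No other member was among them. Spearman's rho was 0.48 for Tent4a and 0.71 to 0.94 for the others. Gbx2, Ppp2r5a, Ppp1r15b, Rrs1 and Epha4 lie on chromosome 1 and Spry2 on chromosome 14, the chromosomes raised in deletion I clone 1. That clone also had the highest Bmp4 and Id1 of the 20 libraries (147.5 and 150 TPM). Its part in these r values was not tested.

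Beyond the 9 members, 59 other autosomal genes of the pathways were listed, of which 56 were tested. Against XX Rnf12+/-, 20 of them passed in XCastO129 (14 lower) and 27 in X129OCast (20 lower), shares like those of all genes (36.3% and 47.5%), with median log2 fold changes of -0.17 and -0.35 where the median of all genes was -0.03 and -0.06. The BMP antagonist Nog had mean levels of 0.614 and 0.1805 TPM in the XO lines and 3.56 TPM in XX Rnf12+/- (log2 fold changes of -2.40, SE 0.515, adjusted p = 0.00121, and -4.02, SE 0.639, adjusted p = 4.32e-05), and the ID family gene Id4 had 4.51 and 2.72 TPM against 21.7 TPM (-2.16, SE 0.233, adjusted p = 7.16e-07, and -2.85, SE 0.246, adjusted p = 2.69e-08). Smad9, a BMP effector, was at 0.388 and 0.427 TPM against 2.02 TPM, and the BMP antagonist Grem1, which fibroblasts also express, at 21.45 and 16.1 TPM against 70.7 TPM.
Between the XO lines 5 of 56 passed, all lower in X129OCast (3.48% of all genes did so): the BMP receptor genes Bmpr2 (log2 fold change -0.74) and Bmpr1a (-0.55), the protease gene Furin (-0.64), the effector Smad3 (-0.54) and the ligand Gdf3 (-0.45). Between XX Rnf12+/- and XX Wildtype 2 of 56 passed (2.94% of all genes), both higher in XX Rnf12+/-, Id4 (21.7 against 10.99 TPM, log2 fold change 1.00, SE 0.216, adjusted p = 0.012) and the SMAD corepressor gene Tgif1 (0.37, SE 0.0919, adjusted p = 0.0285). In deletion E 0 of 56 passed edgeR's test after adjustment, while 9 had an unadjusted p under 0.05 and DESeq2 called 1.

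Against the other 11 lines, 22 of the 56 passed in deletion C (17 higher), near the share of all genes (34.0%), and 17 in deletion J, of which 14 were higher, as 11.3% of all genes were, while the other 10 lines had 0 to 7. In deletion C the BMP target Id2 was at a mean of 114 TPM against 25.9 TPM (log2 fold change 2.24, SE 0.224, adjusted p = 5e-07), the activin subunit gene Inhba at 11.1 against 3.37 TPM (1.95, SE 0.523, adjusted p = 0.00712) and the ligand Bmp7 at 27.0 against 10.9 TPM (1.38, SE 0.237, adjusted p = 0.000173). In deletion J, Id2 was lower (12.6 against 35.1 TPM, -1.24, SE 0.325, adjusted p = 0.0111), as in I-TEL from the same founder line (13.7 against 34.96 TPM, -1.16, adjusted p = 0.018). The Nodal antagonist Cer1 was higher in both, at 3.04 against 0.845 TPM in deletion J (3.65, SE 1.11, adjusted p = 0.0273) and at 3.09 against 0.841 TPM in I-TEL (3.62, SE 1.11, adjusted p = 0.0328). These levels were low, and the log2 fold changes, which average the lines on the log scale, exceed the ratios of the mean TPM. Each of these lines was also among those set against the other. In deletion J the Nodal target Gsc, itself on the list of mesendoderm markers, was higher (6.45 against 2.70 TPM, 1.35, SE 0.441, adjusted p = 0.0367). In deletion I the activin subunit gene Inhbb was at 20.8 against 6.92 TPM (1.69, SE 0.256, adjusted p = 0.00119). This mean includes clone 1, in which the genes of chromosomes 1 and 14 were raised, and the part of that clone was not tested. In deletion H the ligand Bmp6 was at 2.57 against 9.76 TPM (-1.87, SE 0.221, adjusted p = 4.93e-05).
Of 8 X-linked genes linked to the pathways, 6 were tested, and 4 were lower in each XO line against XX Rnf12+/-. Of all genes, 36.3% and 47.5% passed there in either direction. The XO cells hold 1 X chromosome, and the part of the copy number in these values was not tested. In X129OCast the 4 included Rlim, the deleted gene (log2 fold change -4.34). Usp9x, a deubiquitinase of SMAD4, was at 80.7 TPM in XCastO129 and 76.3 TPM in X129OCast against 194 TPM (log2 fold changes of -1.16, SE 0.104, adjusted p = 5.49e-08, and -1.20, SE 0.104, adjusted p = 2.63e-08). In deletion AB, Usp9x was at 90.2 TPM against 175 TPM in the other lines (-0.95, SE 0.116, adjusted p = 0.000118). Whether deletion AB removes 1 copy of Usp9x is not shown here, and the part of the copy number in this value was not tested.

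RefSeq promoter sequences (GRCm38.p6, 250 bases before to 50 after the gene start) were at hand for Nodal, Tdgf1, Bmp4 and Id3. Recognition motifs known for the SMADs of the BMP pathway (GGCGCC), for SMAD3 and SMAD4 (GTCTAGAC) and for the Nodal cofactor FOXH1 (AATNCACA), none of which contains another, were searched on both strands. They were found in none of these 4, and in 11.9%, 0.213% and 3.60% of all 32851 promoters.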

How the data were processed

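Bulk RNA-seq was analysed for 30 libraries, with groups taken from the title of each library. The authors prepared stranded mRNA libraries, trimmed the reads with TrimGalore 0.6.7, mapped them to an mm10 genome with N at strain SNPs (HISAT2 2.2.1), split them by allele and counted them per gene on Ensembl release 98; the methods name featureCounts and the labels HTSeq 0.12.4 for the count. The deposited table holds these counts, not normalized, in 90 columns: all reads, reads of the 129/Sv (Mus) allele and reads of the Cast allele for each library. All other values were computed anew. GENCODE M21 (GRCm38) gave positions and exon lengths (for TPM) of 55154 of the 55421 genes, and the 267 without a match took no more than 0.00401% of any library.

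Genes with a mean of at least 0.5 CPM (counts scaled by library size) over the 30 libraries (16717) were tested with edgeR 4.0.16 (quasi-likelihood test, R 4.3.3) in 1 fit of all libraries with 1 term per condition and TMM factors of autosomal genes, in 30 comparisons. Adjustment was by Benjamini-Hochberg across the tested genes, with calls at 0.05. A mean of several lines weights each line equally. Shares of alleles need at least 20 allelic counts, and their Wilson intervals are at 95% confidence. Correlations used log2(CPM + 1). The fits were tested on simulated data with known changes. Alternatives were DESeq2 1.42.0, other scaling, no filter, a fit of only the groups compared, a block for the replicate number, and single replicates left out, where a lone clone is assumed to vary like the other groups. The members and the lists of pathway and marker genes were chosen with earlier results of these data known. Besides the members, the text names up to 6 called pathway genes with the largest change per comparison, the 3 genes most like each member, markers and Rlim; Usp9x was taken from the listed X-linked genes. Some items are not reported here. Python 3.11.15, numpy 2.4.6, scipy 1.17.1, pandas 2.3.3 and matplotlib 3.10.9 were used for tables and figures.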

Additional observations from a re-analysis of the deposited data

Results flagged for a closer look

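Differences of the same gene between lines were tested directly with edgeR, and 18 of them passed. They were 2 of 9 between the XO lines, where 6.70% of all genes passed, and 16 of 108 pairs of a member and a deletion line. Of all pairs of a gene and a line, 9.31% passed. Deletion C, in which 34.0% of all genes passed, gave 8 of the 16. Between the XO lines, X129OCast minus XCastO129, these were Tdgf1 (log2 fold change -0.51) and Bmp4 (-1.23). Among the 12 lines of the deletion series, each against the mean of the other 11, deletion C differed in Nodal (1.13), Lefty1 (0.84), Tdgf1 (-0.43), Smad7 (0.33), Skil (0.54), Bmp4 (-1.24), Id1 (0.59) and Id3 (0.89). Deletion I differed in Smad7 (0.38), Skil (-0.97) and Bmp4 (0.96), deletion D in Lefty2 (-0.62) and Smad7 (-0.68), deletion J in Lefty2 (0.50) and Id3 (0.62), and deletion AB in Skil (0.85).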

How the results depend on the processing

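For the 9 members, over 101 results on a single gene and comparison, no value past the threshold changed its direction in any of 1298 values under other settings. Under other tools and settings 560 of these values stayed on the same side of the threshold, 39 lost and 7 gained the call, and with 1 library left out 597 stayed, 89 lost and 6 gained it. Without the filter, deletion E had 2 member calls (1 with it), the pairs against XX Rnf12+/- came to 59 (31) and those against the other 11 lines to 40 (16). With only the groups compared in the fit, XCastO129 against XX Rnf12+/- had 0 calls (5), X129OCast against XCastO129 0 (2), deletion E 0 (1), the pairs against XX Rnf12+/- came to 7 (31) and those against the other 11 lines to 26 (16). The cause of these changes was not tested, other than that such a fit has fewer libraries for the spread. With a mean in place of the median over genes, chromosome 14 of deletion I clone 1 was raised by 0.38 (0.45). With 1 library left out in turn, member calls ranged from 0 to 0 for XX Rnf12+/- against XX Wildtype, from 2 to 5 for XCastO129 and from 2 to 4 for X129OCast against XX Rnf12+/-, from 0 to 2 between the XO lines, from 0 to 3 for deletion E and from 2 to 5 for the mean of 12 lines. Pairs against XX Rnf12+/- ranged from 11 (without replicate 1 of that condition) to 51 (without its replicate 2), and pairs against the other 11 lines from 10 (without deletion C clone 1) to 17. The correlation of Lefty1 and Bmp4 was -0.69 without deletion I clone 1. The replicate number as a block gave 33 pairs against XX Rnf12+/- (with all 31 among them) and 18 pairs against the other lines (with all 16 among them). It changed no other call, with 0 for XX Rnf12+/- against XX Wildtype, 5 and 4 for the XO lines, 2 between them, 1 for deletion E and 4 for the mean of 12 lines. No label says that a number marks a shared batch. The differences between replicates of 2 conditions correlated at 0.73 for XX Wildtype and XX Rnf12+/-, where the numbers went together, but at -0.21 and -0.32 for these with deletion E, -0.20 to 0.22 (28 pairs in the deletion series) and 0.13 (the XO lines). Few reads of Id3 (0 to 9 per library) and Id1 (6 to 112) could be assigned to an allele.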
